A study of Homo sapiens with 24 samples.

Results

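The response of HPDE-H6c7 cells (here HPDE), an immortalised line of human pancreatic duct epithelium, to extracellular vesicles (EV) from the pancreatic carcinoma line PANC-1 was described by comparing 3 libraries of vesicle-treated cells with 3 libraries of untreated cells. Genes entered when their mean was at least 1 FPKM (reads scaled to gene length and library total) over the 12 HPDE libraries, which left 12223 of the 48162 genes listed. That mean includes the treated libraries, so a gene low in untreated cells could enter through a treatment that raised it. The series holds 24 RNA-seq libraries in 8 groups of 3, with HPDE or hTERT-HPNE recipient cells (here HPNE, a telomerase-immortalised pancreas line) in the same 4 treatments. Per the labels, the treatments lasted 24 h: fresh keratinocyte serum-free medium (untreated), the residual medium that vesicle isolation left behind (the negative control, whose cell source the labels do not name), 1e10 PANC-1 EV per well, or 1e10 EV per well from PPCL-68, the other cancer cell source. All HPDE groups share the same line and serum-free medium, and the values below are from HPDE unless HPNE is named. The series text calls the libraries biological triplicates, and p-values measure the spread between these 3 libraries of a group.

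Extracellular vesicles are membrane-bound particles that cells shed and that carry protein, RNA and lipid to other cells. A recipient cell that meets foreign or excess cargo can draw on several programs. The integrated stress response slows translation through phosphorylation of eIF2alpha and lets the factor ATF4 induce genes for amino acid supply. The unfolded protein response raises chaperones of the endoplasmic reticulum (ER), and NF-kB drives chemokines and cytokines. Cholesterol synthesis is set by SREBP factors, which are held inactive when membrane cholesterol is high. Pancreatic duct cells are epithelial cells that keep a keratin cytoskeleton and can release neutrophil-attracting chemokines when irritated.

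The 6 libraries compared held 30169822 to 42206773 reads assigned to genes, and 22003 to 23310 genes had at least 1 read. The first principal component of all 12 HPDE libraries held 64.6% of the variance and set both vesicle groups apart from untreated and residual medium; the second held 15.4% and set PANC-1 EV apart from PPCL-68 EV. Reads of the mitochondrial genome made up 0.872, 1.25 and 0.951% of the untreated libraries but 0.635, 0.499 and 0.362% of the PANC-1 EV libraries. Of 10 markers of duct epithelium 9 passed the filter and MUC1, a mucin of ducts, stayed low (0.557 FPKM untreated), with a sum of 2800 to 3040 FPKM untreated and 1570 to 1830 FPKM with PANC-1 EV. Markers of other cells were low in both groups: the acinar sum was 1.24 to 1.71 FPKM untreated and 0.604 to 0.768 FPKM with PANC-1 EV, the endocrine sum at most 0.436 FPKM, the endothelial sum at most 0.921 FPKM and the leukocyte sum at most 2.32 FPKM. The sum of 8 mesenchymal genes typical of carcinoma lines such as PANC-1 was 219 to 225 FPKM untreated and 224 to 231 FPKM with PANC-1 EV. Its members moved in opposite directions. On average FN1 went from 55.8 to 74.2 FPKM, while SNAI2 (67.1 to 60.9), VIM (24.1 to 20.6) and TWIST1 (2.89 to 1.6) were lower. AXL went from 71.7 to 68.3 FPKM, and ZEB1, ZEB2 and CDH2 did not pass the filter. In bulk RNA, fewer cells of a type and less RNA per cell cannot be told apart.

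Vesicles changed most of the transcriptome, mostly by small amounts. By limma on log2(FPKM + 1), with Benjamini-Hochberg adjustment over all genes, 7413 of 12223 genes (60.6%) differed between PANC-1 EV and untreated at an adjusted p under 0.05, which is what "called" means below: 3214 higher (26.3%) and 4199 lower (34.4%). A change of at least 2-fold, that is 1 on the log2 scale, was passed by 250 higher genes (2.05%) and 110 lower genes (0.9%). These 2-fold counts became 401 higher and 242 lower by limma voom on the recovered reads, and 379 higher and 215 lower with pseudocount 0.1. On log2(FPKM + 1), which understates changes of low genes, 5933 called genes moved by under 1.5-fold. On the same scale 44 genes rose and 4 fell by at least 4-fold. The 3 PANC-1 EV libraries did not overlap the 3 untreated ones in 66.9% of all genes tested (3586 higher, 4597 lower). Lack of overlap in a gene named below is therefore common in this comparison. Division by size factors turned the split to 3706 higher and 3566 lower, so the excess of falls depends on the scaling, whereas the median of all genes moved only from -0.045 to -0.005. The same limma fit called 7736 genes (63.3%) against residual medium, 3449 higher and 4287 lower. For residual medium against untreated it called 2443 genes (20.0%), 1214 higher and 1229 lower. For PANC-1 EV against PPCL-68 EV it called 6123 genes (50.1%), 3084 higher and 3039 lower. List counts given below for these comparisons are to be read beside these counts over all 12223 genes. The count of 2443 became 1527 without a filter on low values, 1427 without untreated replicate 1, 1613 without untreated replicate 3 and 1576 without residual medium replicate 1. These comparisons share libraries, so their values are set side by side below and not correlated.

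**Figure D1:**
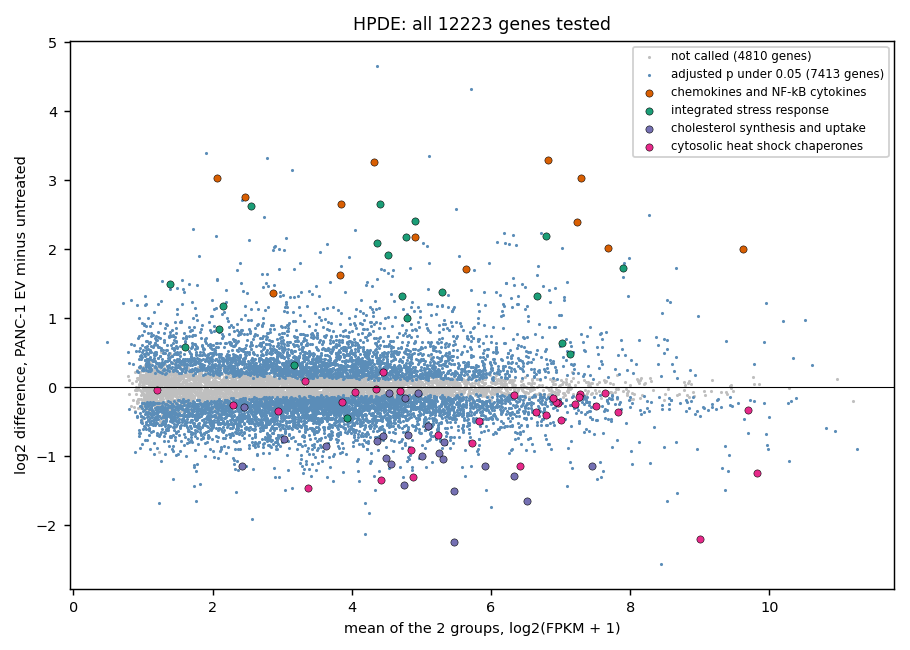
Log2 difference of PANC-1 EV minus untreated (vertical axis) against the mean level of the 2 groups (horizontal axis, log2(FPKM + 1)) for each of the 12223 genes tested in HPDE; blue points are the 7413 called genes and grey points the 4810 that were not. Chemokines and NF-kB cytokines (orange) and most integrated stress response genes (green) lie above 0, and cholesterol genes (violet) and most heat shock chaperones (pink) lie below it.

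Genes of the integrated stress response rose nearly throughout. Of its 20 tested genes, 19 rose and 1 fell, with a median log2 difference of 1.35 against -0.045 for all genes, and 13 rose at least 2-fold. DDIT3 (chr12:57910371-57914300, hg19), the factor also known as CHOP that acts late in prolonged stress, had 6.91, 7.43 and 7.98 FPKM untreated and 50.5, 52 and 53.2 FPKM with PANC-1 EV. The groups did not overlap and the replicates of each lay close together, a 6.97-fold rise (log2 2.65 ± 0.09 SE, adjusted p = 1.1e-11, limma). ATF4, the factor that heads the response and is controlled mainly in translation, rose less, from 119, 114 and 119.7 to 161, 165 and 166 FPKM (log2 0.47, adjusted p = 1.8e-07). With residual medium DDIT3 was at 7.39 ± 1.5 FPKM and ATF4 at 118 ± 2.76 FPKM (mean ± SD, n = 3), and neither was called against untreated (adjusted p = 0.9 and 0.98). Over the list residual medium gave 7 higher and 2 lower genes and a median of -0.012.

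Effectors of the response rose with DDIT3. PPP1R15A, which directs the phosphatase that ends eIF2alpha phosphorylation, went from 47.3, 48.1 and 56.7 to 227, 232 and 244 FPKM. SESN2, a restraint on mTORC1 signalling, went from 11.1, 12.2 and 12.6 to 57.9, 59 and 56.1 FPKM, and CHAC1, which breaks down glutathione, rose by 2.095 on the log2 scale. Secreted products rose too: GDF15, a stress hormone of the TGF-beta family, had 1.39, 1.62 and 1.11 FPKM untreated and 12.6, 13.3 and 14.7 FPKM with vesicles, and STC2, a secreted glycoprotein, had 11.3, 11.7 and 13.2 and 68.9, 66.1 and 70.6 FPKM. In each of these genes the lowest vesicle library was far above the highest untreated library. TRIB3 (log2 1.72), CEBPB (1.32), CEBPG (1.32) and ADM2 (1.500) also rose, and ATF5 (log2 -0.44) was the member that fell. ATF3, a stress factor of the same family as ATF4, rose from 9.38, 10.4 and 12.7 to 46.2, 40.8 and 43.3 FPKM; residual medium raised it as well, to 18.5 ± 2.9 FPKM (log2 0.72 against untreated, adjusted p = 0.0003).

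The promoters of the list members that rose most and hold a copy of the letters TGATGNAA, the element bound by pairs of C/EBP and ATF factors, are shown because the list moved together. RefSeq (GRCh38.p14) gave a window from 250 bases before to 50 bases after the start for 18 of the 20 tested members, and 2 of them (11.1%) held a match on either strand, against 3.67% of 27305 promoters of the same length. Only a single window was kept per gene, so any other start of a gene was not searched. The matched letters are in capitals, at position -209 of CHAC1 (reverse strand) and -191 of ATF3, counted from the start.
CHAC1 (chr15:40953221-40953520, plus strand): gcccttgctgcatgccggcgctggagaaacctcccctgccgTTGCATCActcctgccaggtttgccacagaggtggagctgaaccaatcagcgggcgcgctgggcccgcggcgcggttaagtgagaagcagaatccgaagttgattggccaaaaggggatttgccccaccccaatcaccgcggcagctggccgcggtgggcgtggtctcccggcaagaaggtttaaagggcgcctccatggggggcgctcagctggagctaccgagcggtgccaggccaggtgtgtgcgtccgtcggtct
ATF3 (chr1:212565157-212565456, plus strand): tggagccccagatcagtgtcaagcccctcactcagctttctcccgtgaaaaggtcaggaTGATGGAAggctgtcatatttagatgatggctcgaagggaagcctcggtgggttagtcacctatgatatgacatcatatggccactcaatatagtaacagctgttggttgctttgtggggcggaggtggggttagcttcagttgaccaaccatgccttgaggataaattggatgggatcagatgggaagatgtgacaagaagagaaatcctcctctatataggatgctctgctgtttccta
DDIT3 and SESN2 rose as far, and their windows do not hold those letters. A match describes the sequence alone.

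Genes of amino acid supply rose in most cases. Of 18 amino acid transporters tested, 12 rose and 5 fell (median log2 0.58). SLC7A11, the cystine importer, had 9.97, 9.58 and 10.4 FPKM untreated and 33, 26.2 and 29.8 FPKM with PANC-1 EV, and its partner chain SLC3A2 had 254, 252 and 261 and 396, 436 and 446 FPKM. Neither pair of groups overlapped; log2 differences were 1.475 ± 0.07 and 0.73 ± 0.055 SE. Residual medium lowered SLC7A11 to 5.75 ± 0.473 FPKM (log2 -0.71, adjusted p = 1.2e-05), and PANC-1 EV lay 2.18 above residual medium. The glycine carrier SLC6A9 (log2 1.705), the neutral amino acid carriers SLC38A2 (1.32) and SLC1A4 (1.23) and the cationic carrier SLC7A1 (0.94) rose, while SLC1A3, a glutamate carrier, fell (log2 -0.90).

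Synthesis of nonessential amino acids followed the same direction, with 14 of 19 tested genes higher and 4 lower (median log2 0.66). ASNS (chr7:97481430-97501854, hg19), asparagine synthetase, had 30.7, 32.9 and 34.3 FPKM untreated, 24.1, 32.9 and 31 FPKM with residual medium and 117, 119.8 and 111 FPKM with PANC-1 EV. The vesicle libraries stood 3.56-fold above untreated (log2 1.80 ± 0.08 SE, adjusted p = 2.7e-10, limma). In the serine pathway PHGDH rose from 31.3, 32.8 and 31.4 to 48, 50.6 and 51.3 FPKM and PSAT1 by 0.965 on the log2 scale. CBS (log2 1.35) and CTH (1.17), which turn homocysteine into cysteine, and GPT2 (0.92), the mitochondrial alanine aminotransferase, also rose.

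Charging of transfer RNA split by compartment. Of 20 cytosolic aminoacyl-tRNA synthetases, 13 rose and 4 fell (median log2 0.45), whereas of 16 mitochondrial ones 1 rose and 10 fell (median log2 -0.27). AARS, for alanine, had 71.9, 75.9 and 75.3 FPKM untreated and 172, 175 and 179.8 FPKM with PANC-1 EV, with a log2 difference of 1.23 ± 0.05 SE. Its mitochondrial counterpart AARS2 had 12.3, 11.2 and 12.4 and 8.9, 7.73 and 8.46 FPKM, a log2 difference of -0.47 ± 0.06 SE. Cytosolic GARS (log2 1.04), CARS (0.97), SARS (0.88), MARS (0.72) and YARS (0.72) rose. Mitochondrial VARS2 (log2 -0.68), LARS2 (-0.47), TARS2 (-0.46) and CARS2 (-0.24) fell.

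The letters TGATGNAA stood in promoters of these lists as follows: 6 of 16 cytosolic synthetases with a window (37.5%), 3 of 14 genes of amino acid synthesis (21.4%), 4 of 16 transporters (25.0%) and 1 of 13 mitochondrial synthetases (7.69%), against 3.67% of all windows. The 6 synthetase matches, that of ASNS and those of a transporter that rose and of the one that fell are shown with 10 bases on each side, written so that the capitals read TGATGNAA.
AARS (chr16:70289676-70289703, plus strand): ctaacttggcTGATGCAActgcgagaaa
CARS (chr11:3057408-3057435, plus strand): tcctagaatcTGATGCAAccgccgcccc
IARS (chr9:92293693-92293720, plus strand): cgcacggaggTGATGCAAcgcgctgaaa
MARS (chr12:57488054-57488081, minus strand): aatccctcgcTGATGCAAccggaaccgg
NARS (chr18:57621805-57621832, minus strand): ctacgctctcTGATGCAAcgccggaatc
TARS (chr5:33440957-33440984, minus strand): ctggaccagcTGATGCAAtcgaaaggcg
ASNS (chr7:97872459-97872486, minus strand): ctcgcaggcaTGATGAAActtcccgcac
SLC7A1 (chr13:29595664-29595691, minus strand): ggcgcactgcTGATGAAAcctggcgccg
SLC1A3 (chr5:36596358-36596385, plus strand): aggaaatgacTGATGCAAagcagggtta
The 6 synthetases share TGATGCAA in full, ASNS and SLC7A1 have TGATGAAA, and SLC1A3 carries the synthetases' letters and its RNA fell. The 6 synthetases with a match rose by 0.37 (IARS) to 1.23 (AARS) on the log2 scale.

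The ER arm moved gene by gene, not as a block. ERN1, the kinase and RNase that senses unfolded protein, had 2.78, 2.64 and 3.25 FPKM untreated and 16.1, 12.5 and 15.1 FPKM with PANC-1 EV, and XBP1, whose RNA it splices, had 45.9, 48.7 and 47 and 128, 142 and 132 FPKM. Both rose without overlap (log2 2.00 and 1.48). EIF2AK3, the ER kinase of eIF2alpha, rose slightly (log2 0.23, adjusted p = 0.011); without PANC-1 EV replicate 1 (adjusted p = 0.0532) or untreated replicate 3 (adjusted p = 0.0572) it was not called. EIF2AK4, the kinase that senses uncharged transfer RNA, fell (log2 -0.44). Over 13 sensors and kinases 5 rose and 7 fell (5 and 4 with size factors).

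ER chaperones showed no common direction against untreated, with 6 of 23 higher and 8 lower (median log2 -0.04, which became 0.005 with size factors). HSPA5, the main ER chaperone also known as BiP, had 335, 361 and 342 FPKM untreated, 459.6, 491 and 459 FPKM with PANC-1 EV and 903, 837 and 799 FPKM with PPCL-68 EV. PANC-1 EV raised it modestly (log2 0.44 ± 0.055 SE, adjusted p = 7.5e-06) and it lay below the PPCL-68 level (log2 -0.85, adjusted p = 2.8e-08). DNAJB9, an ER co-chaperone, rose by 1.34 and ERO1L, an oxidase for disulfide formation, by 0.43, whereas SDF2L1 (-0.53) and FKBP11 (-0.35) fell. HSP90B1, the ER form of HSP90, was not called (log2 -0.12, adjusted p = 0.092). Between the vesicle sources the list did lie on a single side: 19 of 23 were lower with PANC-1 EV than with PPCL-68 EV (median log2 -0.46). Over all genes 3039 of 12223 were lower in that comparison.

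ER-associated degradation, which pulls failed proteins out for the proteasome, was likewise mixed against untreated, with 7 of 27 higher and 8 lower; with size factors these became 11 and 8. HERPUD1, a scaffold of the degradation complex, rose from 27.4, 28.3 and 26.9 to 55.9, 53.5 and 55.8 FPKM. VCP, the ATPase that does the pulling, fell from 144, 140.3 and 142 to 81.7, 85.1 and 84.7 FPKM. SEC61G (log2 -0.57) and DERL1 (-0.495) fell as well, VIMP (0.66) rose, and SEL1L was not called (log2 0.10, adjusted p = 0.18). Against PPCL-68 EV, 24 of 27 members were lower and 1 higher (median log2 -0.46).

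Autophagy genes rose in 15 of 25 cases and fell in 3 (median log2 0.27). MAP1LC3B, which coats the autophagosome membrane, had 34, 31.7 and 38.9 FPKM untreated and 150.3, 154 and 149.6 FPKM with PANC-1 EV, and the cargo receptor SQSTM1 had 60.9, 61.8 and 68.9 and 172, 174 and 188 FPKM. Each group pair was clearly separate, with log2 differences of 2.09 and 1.47, and residual medium stayed near untreated at 37.2 ± 2.19 and 67 ± 3.54 FPKM. OPTN (log2 0.72), a cargo receptor, GABARAPL1 (0.70), ULK2 (0.54) and WIPI1 (0.48) rose less. With PPCL-68 EV the levels of MAP1LC3B and SQSTM1 were higher still, 256 ± 17.6 and 344 ± 12.2 FPKM, and both differed from PANC-1 EV (log2 -0.755 and -0.95; adjusted p = 8.3e-07 and 1.5e-08).

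Cytosolic chaperones went the opposite way. Of 33 tested heat shock genes, 25 fell and 1 rose (median log2 -0.27); with size factors 21 fell and 2 rose. HSPA8 (chr11:122928197-122933938, hg19), the constitutive HSP70 and among the most abundant RNAs of these cells, had 1073, 1108 and 1106 FPKM untreated, 1038, 1167 and 1129 FPKM with residual medium and 238, 231 and 245 FPKM with PANC-1 EV. The vesicle group held less than any control library by a wide margin, 4.6-fold lower than untreated (log2 -2.20 ± 0.06 SE, adjusted p = 1.3e-12, limma). HSP90AA1, the inducible HSP90, fell from 1382, 1377 and 1398 to 582, 606 and 569.8 FPKM. The inducible HSP70 genes HSPA1A (16.4, 14.5 and 17.6 to 5.51, 4.23 and 5.95 FPKM) and HSPA1B (log2 -1.35) fell too, but they are near-identical copies whose reads the counting could split, and their single values are uncertain. The co-chaperone DNAJA1 (log2 -1.14) and the polyubiquitin gene UBB (-1.30) fell, with the same caution for UBB, which has processed copies. HSF1, the factor that drives heat shock genes, was the member that rose (log2 0.22).

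Promoter windows were found for 29 of the 33 genes, and 10 of them (34.5%) held the heat shock element core GAANNTTC on either strand, against 6.87% of all windows. The windows of the members with a match that fell most are shown with the core in capitals, at positions -230 and -50 of HSPA8 and -106 of HSPA1A.
HSPA8 (chr11:123062087-123062386, minus strand): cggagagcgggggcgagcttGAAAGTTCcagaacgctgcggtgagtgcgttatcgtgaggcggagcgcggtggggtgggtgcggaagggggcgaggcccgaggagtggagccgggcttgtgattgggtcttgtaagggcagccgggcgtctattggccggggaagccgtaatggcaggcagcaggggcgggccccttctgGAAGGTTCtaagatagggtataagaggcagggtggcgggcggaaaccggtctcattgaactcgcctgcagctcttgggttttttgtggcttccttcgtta
HSPA1A (chr6:31815293-31815592, plus strand): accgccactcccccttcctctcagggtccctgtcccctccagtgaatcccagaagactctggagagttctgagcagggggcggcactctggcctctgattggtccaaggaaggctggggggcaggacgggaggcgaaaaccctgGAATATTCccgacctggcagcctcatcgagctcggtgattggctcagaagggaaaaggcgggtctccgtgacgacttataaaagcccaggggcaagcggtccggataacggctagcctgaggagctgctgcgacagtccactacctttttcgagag
HSPA1B, DNAJA1 and SERPINH1 also held the core and fell, while HSPB8 and CHORDC1 held it and were not called.

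In the proteasome list, which holds subunits, activators and the factor NFE2L1, 22 of 34 genes fell and 4 rose (median log2 -0.21). Falls included PSMB2 from 106, 108 and 106 to 62.9, 71 and 65.2 FPKM and PSMD1 from 76.3, 71.8 and 72.7 to 47.9, 48.3 and 45.3 FPKM. NFE2L1, which induces proteasome genes, was 1 of the 4 rises (log2 0.86). With residual medium 15 of the 34 were called higher than untreated. The value for PSMA1 (log2 -0.31) rests on 3.34 to 3.91 FPKM untreated, low for a core subunit, and is uncertain.

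Cholesterol synthesis fell nearly throughout. Of 24 tested genes of synthesis and uptake, 22 fell, 11 of them at least 2-fold, and the other 2 were not called, with a median log2 difference of -0.97. HMGCS1 (chr5:43289497-43313614, hg19), an early enzyme of the pathway, had 90.4, 99.1 and 97.1 FPKM untreated, 64.8, 76.3 and 76.2 FPKM with residual medium, 20.2, 18.9 and 19.2 FPKM with PANC-1 EV and 22.3, 22.9 and 25.6 FPKM with PPCL-68 EV. The order was untreated, residual medium, then the vesicle groups, and no PANC-1 EV library overlapped a control. The fall against untreated was 4.92-fold (log2 -2.24 ± 0.07 SE, adjusted p = 2.3e-12, limma). SQLE, which oxidises squalene, fell from 76.5, 74.2 and 71.1 to 24.6, 25.9 and 25.3 FPKM. MSMO1 (log2 -1.285), FDFT1 (-1.14) and INSIG1 (-1.05) fell as well; PMVK and SREBF2, which encodes the SREBP factor itself, were not called (log2 -0.08 and -0.08).

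Part of this fall was present with residual medium alone: 14 of the 24 genes were called lower than untreated, with a median log2 difference of -0.25. For SQLE the residual medium difference was -0.36 (adjusted p = 7.7e-05) and the further difference of PANC-1 EV from residual medium was -1.15 (adjusted p = 5.8e-11). Of 17 members with a promoter window, 1 (5.88%), SREBF2, held the sterol element core TCACCCCAC, against 0.425% of all windows. SREBF2 was not called against untreated, so no promoter is shown for this list.

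Fatty acid synthesis followed, with 11 of 14 genes lower and 2 higher (median log2 -0.49; residual medium against untreated 10 lower). FASN, the fatty acid synthase, fell from 214, 222 and 205 to 93.5, 92.1 and 96.1 FPKM and SCD, the desaturase, from 294, 297 and 276 to 121, 114 and 109 FPKM. Residual medium lowered SCD to 183 ± 8.66 FPKM. FADS2 (log2 -0.975), ACLY (-0.82), LPIN1 (-0.76) and ELOVL6 (-0.58) fell, and SREBF1 (0.32) rose. The cholesterol exporters ABCA1 and ABCG1, known targets of the sterol receptor LXR, rose from low levels: ABCA1 had 0.625, 0.727 and 0.74 FPKM untreated and 4.21, 3.25 and 3.38 FPKM with PANC-1 EV, and ABCG1 0.496, 0.641 and 0.681 and 3.27, 3.42 and 3.22 FPKM. NPC1, a cholesterol transporter of lysosomes (log2 0.36), and PLTP, a phospholipid transfer protein (0.34), rose a little, and NPC2 (-0.61) and SMPDL3A (-0.27) fell. Over the 11 genes of the efflux list 5 rose and 3 fell.

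Chemokines and cytokines had the highest median of the 45 gene lists. Of 18 listed genes of neutrophil-attracting chemokines and NF-kB cytokines 13 passed the filter, and all 13 rose at least 2-fold, with a median log2 difference of 2.39. CXCL5, CXCL6, TNF, CCL2 and IL33 were not tested. The filter favours rises among genes low in untreated cells, such as IL6, so the share that rose depends partly on it. IL8 (chr4:74606223-74609433, hg19), the main neutrophil attractant (CXCL8), had 31.2, 36.5 and 37.3 FPKM untreated, 175, 226 and 226 FPKM with residual medium, 357, 356 and 342 FPKM with PANC-1 EV and 192, 167 and 161 FPKM with PPCL-68 EV. The untreated libraries lay lowest and the PANC-1 EV libraries highest, with residual medium well above untreated. The PANC-1 EV rise over untreated was 10.1-fold (log2 3.30 ± 0.095 SE, adjusted p = 2.1e-12, limma), and 0.76 remained on the log2 scale against residual medium (adjusted p = 8.3e-06). Over the list the residual medium median was 1.603 against untreated, with all 13 genes called higher, and PANC-1 EV lay a median 0.78 above residual medium.

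The members differed in how much residual medium shared. CXCL1 was not called between residual medium and PANC-1 EV (log2 -0.12, adjusted p = 0.35): 20.2, 29.2 and 30.4 FPKM untreated, 87.7, 95.2 and 83.2 FPKM with PANC-1 EV and 96.4 ± 2.34 FPKM with residual medium. IL6, a fever and acute-phase cytokine, had 0.434, 0.419 and 0.538 FPKM untreated, 2.44 ± 0.553 FPKM with residual medium and 10.6, 11.2 and 10.9 FPKM with PANC-1 EV. On the log2(FPKM + 1) scale, which understates its change from a low untreated level, IL6 rose by 3.02. Residual medium stood 1.22 above untreated and PANC-1 EV 1.80 above residual medium. CXCL2 (log2 3.03 against untreated, 1.83 for residual medium), CXCL3 (3.26 and 1.64), IL36G (2.755 and 2.04) and CSF2 (2.65 and 1.304) lay in between on that scale. CXCL1, CXCL2 and CXCL3 are close copies. IL1A, an alarmin of epithelial cells, gave the largest rise of any gene in FPKM, from 390.1 ± 6.61 to 1569 ± 66.5 FPKM (mean ± SD, n = 3), with 666 ± 29.1 FPKM in residual medium. IL24, a cytokine of the IL10 family, had 9.66, 9.53 and 10.5 FPKM untreated and 109, 105 and 114 FPKM with PANC-1 EV (log2 3.34, and 2.29 against residual medium).

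**Figure D2:**
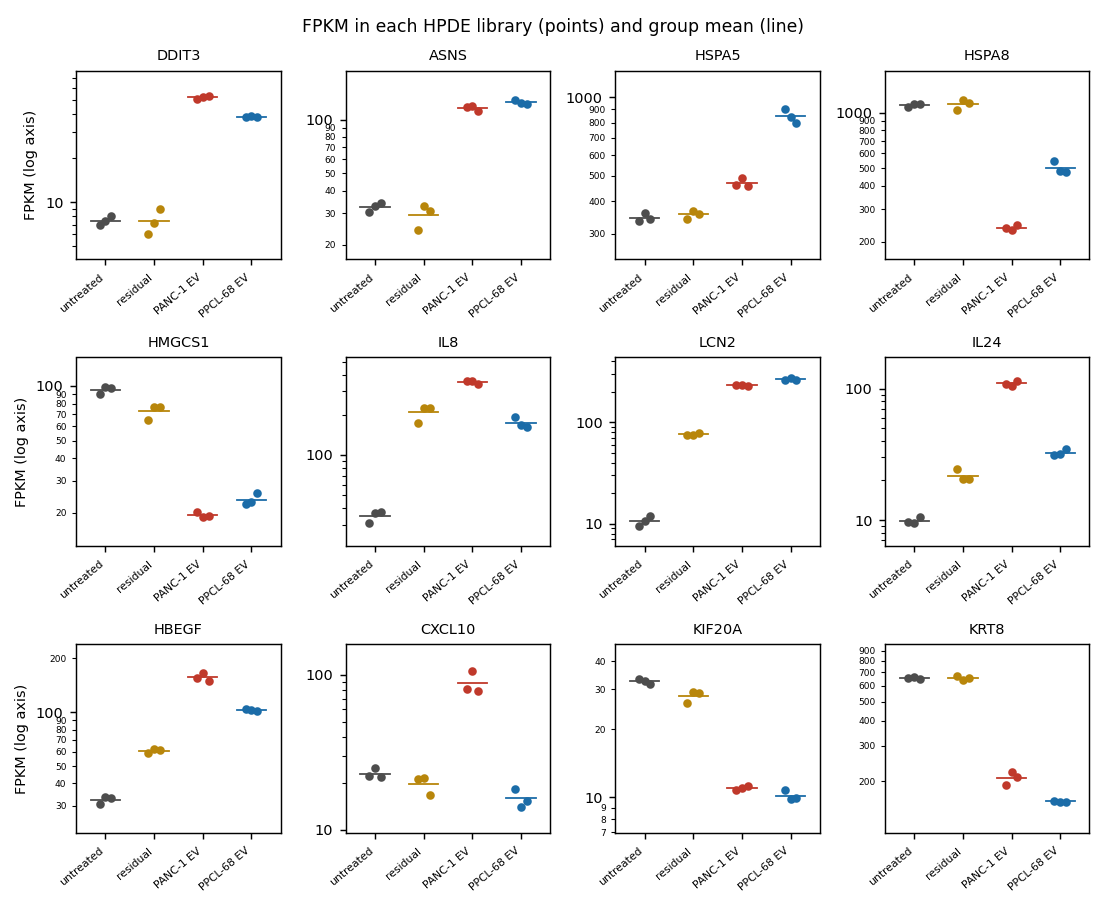
FPKM (log axis) of 12 genes in each HPDE library, with points for the 3 replicates of a group and a line at their mean. DDIT3 and ASNS stood apart in both vesicle groups, IL8 and LCN2 were already raised with residual medium (76.1 FPKM for LCN2), and CXCL10 and IL24 were highest with PANC-1 EV.

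NF-kB subunits and feedback inhibitors rose in all 17 cases (median log2 1.03), 13 of which also rose with residual medium (median 0.48). NFKBIA, the inhibitor that NF-kB itself induces, had 47.3, 49.4 and 48.2 FPKM untreated, 75.9 ± 2.51 FPKM with residual medium and 94.5, 102 and 101 FPKM with PANC-1 EV. TNFAIP3, the feedback deubiquitinase A20, rose from 41.2, 48.8 and 52.6 to 114, 100.2 and 109 FPKM. NFKBIZ (log2 1.795), ZC3H12A (1.40), an RNase that degrades cytokine RNA, and NFKB2 (1.375) rose, and TNFAIP2 rose by 1.465, with 1.44 over PPCL-68 EV (adjusted p = 1.6e-07).

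Of 17 listed antimicrobial and acute-phase genes 9 passed the filter. All 9 rose (median log2 1.58), and all 9 also rose with residual medium (median 1.14). Genes low in untreated cells could pass through the treated libraries, so the share that rose depends partly on the filter. LCN2 (chr9:130911350-130915734, hg19), which sequesters bacterial iron carriers, had 9.47, 10.6 and 12 FPKM untreated, 76.1 ± 2.03 FPKM with residual medium and 236, 234 and 228 FPKM with PANC-1 EV. The groups formed separate steps, a 21.7-fold rise over untreated (log2 4.325 ± 0.06 SE, adjusted p = 1.8e-15, limma). DEFB4A, a defensin with a second near-identical gene copy, rose from 1.75, 0.998 and 0.786 to 21.9, 18.2 and 21.4 FPKM but was not called against residual medium (log2 0.31, adjusted p = 0.12). The elastase inhibitor PI3 was at 19.1 ± 4.74 FPKM with residual medium and 13.9 ± 1.85 FPKM with PANC-1 EV (log2 -0.41, adjusted p = 0.015). SAA1 (log2 1.58) and SAA2 (1.98), near-identical acute-phase genes, rose. VNN3, of the vanin family, rose from 0.151, 0.188 and 0.113 to 11.1, 11.2 and 10.9 FPKM, and LURAP1L, which residual medium left at 1.71 ± 0.165 FPKM, from 1.51, 1.96 and 2.5 to 24.6, 24.8 and 26.2 FPKM.

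Interferon-stimulated genes rose in 26 of 30 cases and fell in 2 (median log2 0.59); 15 rose with residual medium (median 0.20). ISG15, a ubiquitin-like modifier, had 888, 874 and 761 FPKM untreated and 1453, 1711 and 1766 FPKM with PANC-1 EV. CXCL10 (chr4:76942273-76944650, hg19), a T cell attractant, had 22.1, 25 and 21.8 FPKM untreated, 21.1, 21.7 and 16.7 FPKM with residual medium, 81, 107 and 78.5 FPKM with PANC-1 EV and 18.4, 14.1 and 15.3 FPKM with PPCL-68 EV. PANC-1 EV was the group that stood out for CXCL10 (log2 1.89 ± 0.12 SE against untreated and 2.40 against PPCL-68 EV, adjusted p = 7.5e-09 and 3.9e-09). IFIT2 (log2 1.63), OASL (1.297) and RSAD2 (1.21), antiviral effectors, rose. IFIT1 rose slightly (log2 0.255, adjusted p = 0.014) and lost its call without a filter on low values (adjusted p = 0.0664), without PANC-1 EV replicate 2 (adjusted p = 0.0657) or untreated replicate 3 (adjusted p = 0.0791). Against PPCL-68 EV, 25 of 30 members were higher (median log2 0.65).

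Genes of antigen presentation by MHC class I rose in 9 of 15 cases and fell in 1 (median log2 0.34). HLA-B had 279, 274 and 267 FPKM untreated and 395, 409 and 448 FPKM with PANC-1 EV, and the peptide transporter gene TAP1 had 47.1, 46.5 and 42.7 and 64.1, 71.2 and 71.2 FPKM. HLA-C (log2 0.44), HLA-E (0.44) and HLA-F (0.605) rose; HLA genes are similar in sequence, so reads can be split among them. Residual medium raised 5 of the 15.

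Ligands of the EGF receptor formed another rising group, with 10 of 12 genes of the family higher and 2 lower (median log2 0.71). HBEGF (chr5:139712428-139726216, hg19) had 30.6, 33.4 and 33.2 FPKM untreated, 59, 62.3 and 61.4 FPKM with residual medium and 155, 165 and 149.9 FPKM with PANC-1 EV. The groups did not overlap, with a 4.83-fold rise over untreated (log2 2.24 ± 0.05 SE, adjusted p = 9.5e-14, limma). EREG rose from 135, 127 and 130.2 to 494, 476 and 473 FPKM and AREG from 128, 115 and 140.1 to 418, 422 and 502 FPKM; EPGN (log2 1.64) rose from a low level. EGFR, the receptor, rose from 60.3, 56.3 and 57.6 to 97.6, 83.6 and 92.5 FPKM, whereas residual medium lowered it to 37.4 ± 0.664 FPKM (log2 -0.62, adjusted p = 5.7e-06). ERRFI1, a feedback inhibitor of the receptor, rose by 1.13, and the receptor genes ERBB2 (-0.15) and ERBB3 (-0.25) were the members that fell.

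Downstream of the receptor the ERK output list was split, with 5 of 16 higher and 5 lower (6 and 4 with size factors). PHLDA1 rose from 31.6, 32.6 and 30.9 to 137, 146 and 136 FPKM and the ERK phosphatase gene DUSP5 by 1.41, whereas DUSP6, the other ERK phosphatase gene, fell from 57.5, 55.3 and 52.8 to 37, 36.8 and 37.1 FPKM. SPRY4 was not called (log2 0.02, adjusted p = 0.77). IER3 (log2 1.03) and EPHA2 (0.77) rose. Of 19 immediate-early factors 12 rose and 3 fell (median log2 0.32): KLF4 (log2 1.165), KLF6 (1.10), MAFF (1.01) and JUN (0.36) rose and FOS (-0.405) fell, while residual medium raised 11 of them.

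Most proteases and growth factors of the extracellular space rose. Matrix proteases and their inhibitors were higher in 13 of 18 cases and lower in 3 (median log2 0.52), and the residual medium median was nearly the same, 0.51, with 11 higher. MMP10 went from 0.641, 0.633 and 0.212 to 6.13, 6.04 and 6.5 FPKM and SERPINB2, an inhibitor of plasminogen activators, from 43.2, 47.4 and 51.7 to 212, 225 and 244 FPKM. MMP1 was higher with residual medium (40.6 ± 15.1 FPKM) than with PANC-1 EV (31.4 ± 1.23 FPKM) on average, though that difference was not called (adjusted p = 0.1). The higher mean came from residual medium replicate 1 (58.1 FPKM), whose partners had 32.7 and 31.15 FPKM, near the PANC-1 EV libraries. MMP9 (log2 1.62), PLAU (1.26) and ADAMTS1 (1.195) rose. Among 19 angiogenic factors 10 rose and 5 fell: FGF2 rose from 6.29, 6.38 and 6.76 to 34.9, 32.7 and 37.9 FPKM, VEGFA from 25.1, 23.2 and 22.1 to 63.5, 59.3 and 64.7 FPKM and EDN1 (log2 1.71) and TYMP (1.70) rose as well. FGFBP1, a secreted carrier of fibroblast growth factors, gave the largest fall of any protein-coding gene on the log2(FPKM + 1) scale, from 904, 838 and 775 to 129.9, 143 and 152 FPKM, with 463 ± 70.4 FPKM in residual medium and 41.7 ± 6.47 FPKM with PPCL-68 EV. APLN, the apelin peptide gene, fell from 35.3, 37.2 and 39 to 7.71, 7.83 and 7.65 FPKM.

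Genes of cell division fell together. Of 38 mitosis and spindle genes 37 fell and 1 was not called (median log2 -0.68), and of 39 genes of DNA replication and nucleotide supply 36 fell and 1 rose (median log2 -0.48). KIF20A (chr5:137514408-137523404, hg19), a kinesin of cytokinesis, had 33.5, 32.8 and 31.8 FPKM untreated, 26.2, 29.3 and 29 FPKM with residual medium and 10.8, 11 and 11.2 FPKM with PANC-1 EV. The replicates of each group were tight and the vesicle group lay lowest of the 3 (log2 -1.49 ± 0.05 SE, adjusted p = 1.1e-11, limma). CCNB1, the mitotic cyclin, fell from 104, 97.8 and 101 to 61.8, 66.5 and 63.1 FPKM and PCNA, the replication clamp, from 226, 226 and 223 to 134, 146 and 142 FPKM. KIFC1 (log2 -1.29), ANLN (-1.16), PLK1 (-1.04), CDK1 (-0.52), ORC1 (-1.19), UHRF1 (-1.085), FEN1 (-1.02), MCM5 (-1.01) and MCM2 (-0.44) fell. NDC80, ORC6 and GINS3 were not called, and RPA2 (log2 0.19) was the member that rose. PPCL-68 EV held these genes lower still: 27 mitosis genes and 35 replication genes were higher with PANC-1 EV than with PPCL-68 EV, and 1 mitosis gene was lower.

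Regulators of the G1 phase were mixed, with 5 of 20 higher and 7 lower. CDKN1A, the inhibitor p21, rose from 51.1, 51.3 and 53.6 to 116, 119.5 and 116 FPKM, with 75 ± 2.52 FPKM in residual medium, while CCND1, cyclin D1, fell from 102, 105 and 102 to 64.9, 63 and 65.4 FPKM. CDKN2C (log2 -0.91), CCNE2 (-0.61) and CCND2 (-0.54) fell and CDKN1C (0.48) rose. The p53 target list gave 11 of 25 higher and 8 lower (median log2 0.08); GADD45A rose from 49.4, 53.4 and 60.8 to 177, 184 and 196 FPKM, BBC3 (log2 1.165) and MDM2 (0.38) rose, and PLK2 (-0.80) fell. Several of these genes, SESN2 and CDKN1A among them, also answer other stresses.

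Among 22 genes of the BCL2 family and death receptors 16 rose and 3 fell (median log2 0.28). PMAIP1, the pro-death protein NOXA, had 45.3, 41.1 and 43.3 FPKM untreated, 82.8 ± 0.776 FPKM with residual medium and 119.7, 118 and 136 FPKM with PANC-1 EV. BCL2A1, a pro-survival member, was higher with residual medium (8.72 ± 0.934 FPKM) than with PANC-1 EV (6.44 ± 0.55 FPKM; log2 -0.38, adjusted p = 0.0072). TNFRSF10B, the death receptor DR5, rose from 61.6, 61.8 and 64.4 to 94.7, 82.6 and 89.2 FPKM, and the decoy receptor gene TNFRSF10D fell (log2 -1.17). MCL1 rose slightly (log2 0.17).

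Transcripts of the mitochondrial genome fell in all 12 cases tested (median log2 -1.15; residual medium median -0.05). MT-CO1, a subunit of cytochrome oxidase, had 932, 1335 and 1013 FPKM untreated, 1019, 995 and 1090.0 FPKM with residual medium, 489, 389 and 297 FPKM with PANC-1 EV and 579, 499 and 462 FPKM with PPCL-68 EV. Untreated replicate 2 lay highest and PANC-1 EV replicate 3 lowest, but the groups did not overlap (log2 -1.49 ± 0.15 SE, adjusted p = 1.2e-06, limma). MT-ATP6, of the ATP synthase, fell from 604, 808 and 640.0 to 307, 237 and 177 FPKM. MT-ND6 (log2 -1.43), MT-ND4L (-1.30), MT-ND5 (-1.22), MT-ND1 (-0.98) and MT-CO2 (-0.90) fell too; the nuclear copy MTATP6P1 (log2 -1.82) resembles the mitochondrial gene and can share its reads. Standard errors ran from 0.107 (MT-ND3) to 0.205 (MT-ND4L), against a median of 0.067 over all genes. Without PANC-1 EV replicate 3 the list median was -0.942, and all 12 genes were still called lower. RNA quality was not tested.

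**Figure D3:**
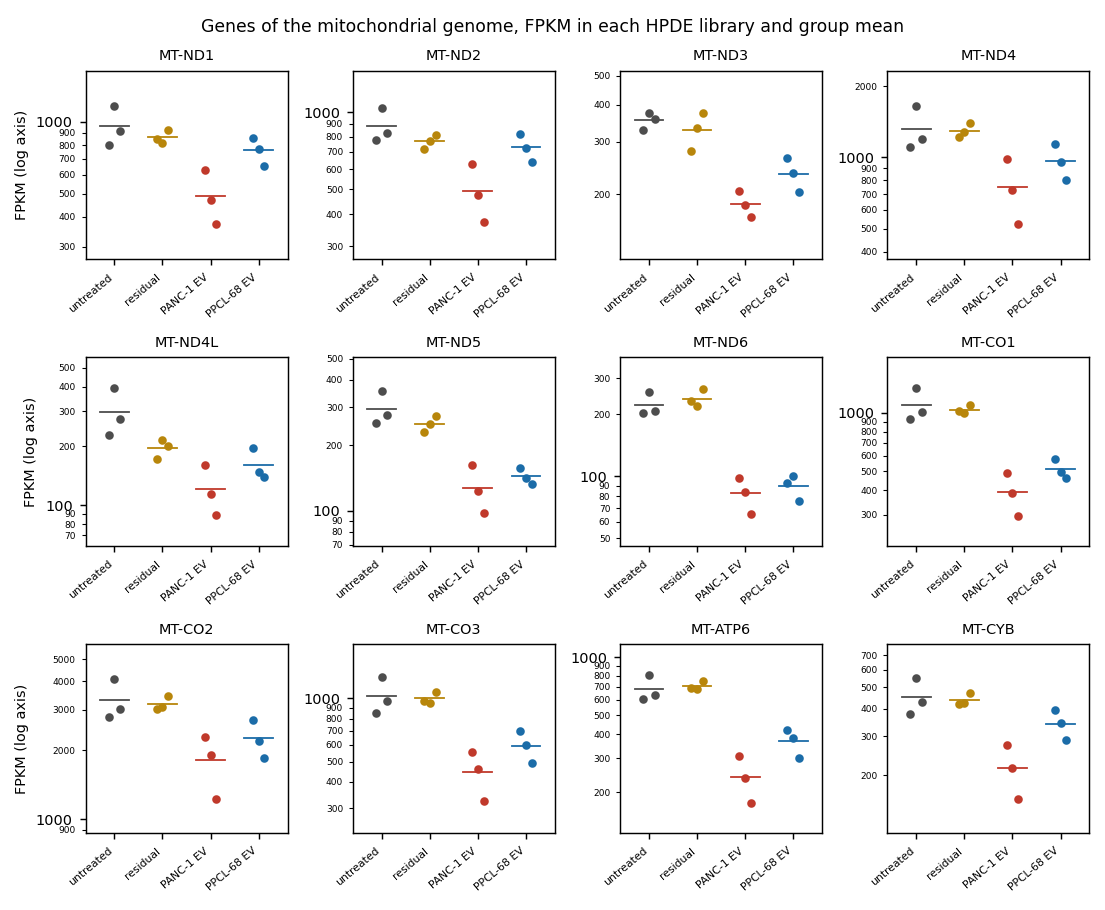
FPKM (log axis) of the 12 tested genes of the mitochondrial genome in each HPDE library, with points for replicates and lines for group means. In every panel the 3 PANC-1 EV libraries lie below the 3 untreated libraries, and PANC-1 EV replicate 3 is the lowest.

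Nuclear genes for mitochondrial proteostasis did not share that fall: of 13 chaperones and proteases 5 rose and 2 fell. HSPA9, the mitochondrial HSP70, rose from 189, 193 and 199 to 282, 284 and 285 FPKM, LONP1 (log2 0.41) and CLPX (0.21) rose, HTRA2 (-0.42) fell and HSPD1 was not called (log2 -0.13, adjusted p = 0.1). HSPE1 fell (log2 -0.84) but has many processed copies and only 9.7, 7.01 and 8.23 FPKM untreated. Cytosolic ribosomal proteins fell in 52 of 77 cases and rose in 2 (median log2 -0.23); with size factors 41 fell and 4 rose. RPS25 (log2 -0.63), RPL38 (-0.66), RPL23 (-0.60), RPL23A (-0.60) and RPS6 (-0.23) fell, RPLP0 was not called (-0.05), and processed copies make single values uncertain. Ribosome biogenesis was mixed (12 of 30 higher, 8 lower): MYC rose from 150.3, 152 and 151 to 262, 256 and 270.2 FPKM, NOP58 (log2 0.70) and DKC1 (0.52) rose, RRS1 (-0.575) fell and NCL was not called (0.07).

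Most keratins fell. Of 13 tested, 9 fell and 3 rose (median log2 -0.30). KRT8 (chr12:53290977-53343738, hg19), a keratin of simple epithelium, had 652, 664 and 645 FPKM untreated, 674, 641 and 656 FPKM with residual medium and 192, 222 and 211 FPKM with PANC-1 EV. Only the vesicle libraries were low, 3.14-fold under untreated (log2 -1.65 ± 0.05 SE, adjusted p = 3.2e-12, limma). The duct keratin KRT19 fell from 924, 1028 and 914 to 387, 476 and 415 FPKM and KRT18 fell too (log2 -0.76). The basal keratin KRT5 fell from 1869, 1786 and 1756 to 814, 872 and 896 FPKM, but residual medium had lowered it as far, to 937 ± 91.7 FPKM (PANC-1 EV minus residual medium -0.12, adjusted p = 0.17). KRT14 (log2 -0.86) fell and KRT6B (1.05), a wound keratin with a close copy, rose. Against PPCL-68 EV 12 of 13 keratins were higher. The duct marker list shares KRT7, KRT8, KRT18 and KRT19 with these keratins; of its other genes SOX9, a duct factor, fell (log2 -0.80), EPCAM, an epithelial adhesion protein, rose (0.19) and CDH1 and CLDN4 were not called.

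Squamous genes rose in 9 of 15 cases and fell in 4 (median log2 0.42). SPRR2D (chr1:153012201-153014407, hg19), a precursor of the cornified envelope, gave the largest rise of all protein-coding genes on the log2(FPKM + 1) scale, with 2.32, 3.23 and 3.83 FPKM untreated, 17.5, 20.6 and 20.4 FPKM with residual medium and 104, 99.9 and 102 FPKM with PANC-1 EV. By the ratio of mean FPKM, VNN3 rose further (73.6-fold, against 32.6-fold for SPRR2D). Residual medium lay 2.33 above untreated on the log2 scale and PANC-1 EV lay a further 2.33 above it. Its close copy SPRR2A was higher with residual medium (21.1 ± 2.9 FPKM) than with PANC-1 EV (14.6 ± 1.22 FPKM; log2 -0.49, adjusted p = 0.0018), and reads of the pair can be split. RHCG (log2 1.19) rose, and SPRR1B was not called (log2 0.21, adjusted p = 0.058). By limma SPRR1B was called higher with size factors (adjusted p = 0.0328), with only the libraries compared (0.0297) and without PANC-1 EV replicate 1 (0.0302).

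Junction and mesenchymal genes were mixed, with 10 of 21 higher and 6 lower. CDH1, E-cadherin, was not called (52.8, 53.5 and 49.9 FPKM untreated, 49.2, 48.3 and 47.6 FPKM with PANC-1 EV, adjusted p = 0.098), and VIM, vimentin, was lower (log2 -0.22, adjusted p = 0.019; 0.072 with size factors, 0.0727 without a filter, and 0.0641, 0.0753 and 0.0803 without PANC-1 EV replicate 1, PANC-1 EV replicate 3 or untreated replicate 2). CLDN1, a tight junction claudin, rose from 56.1, 52.5 and 51.7 to 149, 146 and 149 FPKM and CLDN7 by 0.66, while CTNNB1 (-0.57) and TWIST1 (-0.56) fell. In the matrix list 9 of 25 rose and 10 fell (10 and 8 with size factors): LAMB3, of laminin 332, rose from 614, 666 and 667 to 1493, 1529 and 1523 FPKM and TNC (1.255), FN1 (0.40) and COL17A1 (0.24) rose, whereas SPARC fell from 79.6, 75.8 and 74.6 to 34.4, 35.4 and 32.4 FPKM and COL8A1 fell as well (-0.86). Of the 21 lamins, linker histones and HMG proteins 14 fell and 4 rose (median log2 -0.43): LMNB1 fell from 42.3, 42 and 42.9 to 19.3, 18 and 18.1 FPKM, LMNA (-0.78), LMNB2 (-0.74), LBR (-0.78) and H2AFX (-0.69) fell, and the linker histone H1F0 rose from 205, 234 and 222 to 701, 729.8 and 755 FPKM. ACTB, beta actin, fell from 2362, 2497 and 2447 to 1502, 1731 and 1481 FPKM, and PTRF, the caveolar protein cavin, from 113, 116 and 118 to 34.1, 33.1 and 35 FPKM.

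**Figure D4:**
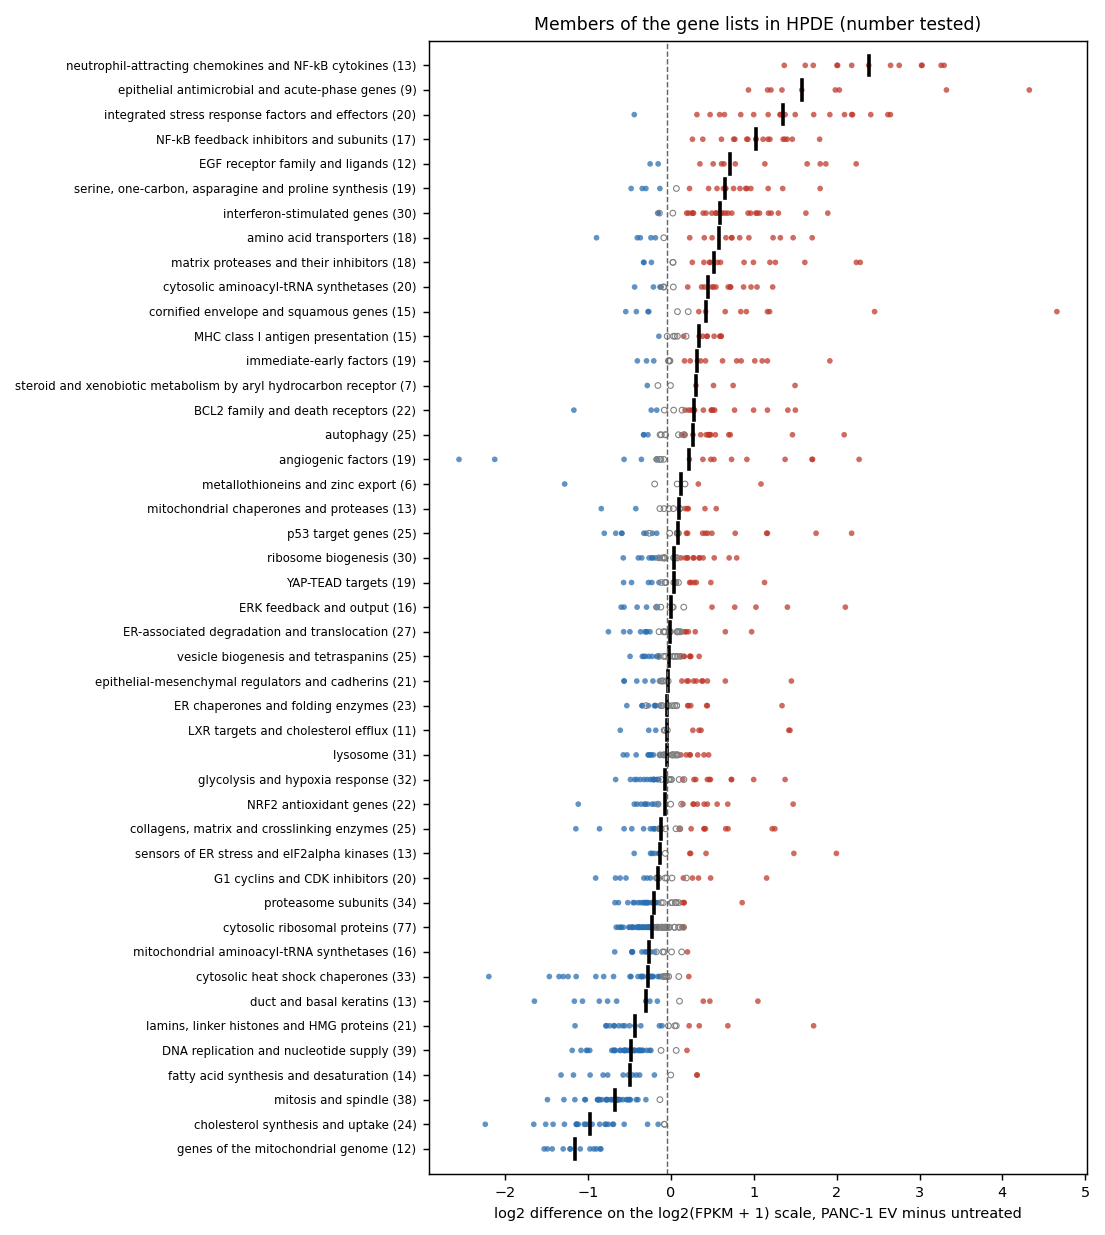
Log2 difference of PANC-1 EV minus untreated for every tested member of 45 gene lists (1 list per line, number tested in brackets); red points rose and blue points fell at an adjusted p under 0.05, open points were not called, black bars are list medians and the dashed line is the median of all genes, -0.045. The median of the 13 chemokine and cytokine genes lies farthest right, and the medians of the 12 mitochondrial genome genes and 24 cholesterol genes farthest left.

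Other lists showed smaller or divided changes. Glycolysis and hypoxia genes rose in 10 of 32 cases and fell in 15 (12 and 11 with size factors): HIF1A (log2 0.73), NDRG1 (1.00), ADM (0.73), HK2 (0.44) and SLC2A1 (0.28) rose and PKM (-0.67) fell. Of 22 NRF2 antioxidant genes 9 rose and 10 fell (9 and 7 with size factors); GPX2 fell from 14.1, 14 and 13.7 to 5.64, 6.33 and 5.7 FPKM, TXNRD1 (0.56) and MAFG (0.69) rose, NQO1 was not called (log2 -0.16) and HMOX1 rose weakly (log2 0.275, adjusted p = 0.023; 0.0512 by limma voom on the recovered reads, 0.0845 without a filter on low values, 0.0541 without PANC-1 EV replicate 2, 0.0942 without PANC-1 EV replicate 3 and 0.0953 without untreated replicate 1). Of 6 genes of metallothioneins and zinc transport 2 rose and 1 fell: the exporter SLC30A1 rose (log2 1.09), the importer SLC39A10 fell (-1.28) and MT2A, the abundant metallothionein, was not called (log2 -0.20). Without PANC-1 EV replicate 2, the highest MT2A value of its group, MT2A was called lower (log2 -0.362, adjusted p = 0.00935, limma). YAP-TEAD targets gave 6 of 19 higher and 5 lower, with CTGF not called (log2 0.05), CYR61 barely lower (-0.14, adjusted p = 0.03; 0.155 with size factors, 0.0855 without a filter, 0.121 without PANC-1 EV replicate 3, 0.087 without untreated replicate 2 and 0.124 without untreated replicate 3) and DLC1 higher (1.13). Lysosome genes were divided (7 of 31 higher, 9 lower, or 9 and 8 with size factors; LIPA -0.575, TFE3 0.455, LAMP1 not called at 0.04). So were genes of vesicle biogenesis (7 of 25 higher, 9 lower, or 8 and 6 with size factors), with the tetraspanin genes CD9 (log2 -0.31) and CD81 (-0.16; adjusted p = 0.0083, 0.0693 with size factors) lower. In the list of steroid and xenobiotic metabolism by the aryl hydrocarbon receptor 4 of 7 genes rose and 1 fell. ALDH1A3 (1.498), AHR (0.51) and CYP1A1 (0.751) rose. CYP1B1 rose weakly and by limma lost its call without a filter (adjusted p = 0.101) or without untreated replicate 3 (0.128). It also lost its call without PANC-1 EV replicate 1 (0.0621), 2 (0.0647) or 3 (0.0547).

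The vesicle sources differed most in a few genes. Among genes called against untreated, those farthest above PPCL-68 EV were CXCL10 and LTB, a TNF family ligand with 4.13, 4.75 and 5.83 FPKM untreated, 13, 14.9 and 13.3 FPKM with PANC-1 EV and 1.36, 2.04 and 2.36 FPKM with PPCL-68 EV. For LTB the difference between the sources was 2.35 ± 0.135 SE on the log2 scale (adjusted p = 1e-08, limma), and PPCL-68 EV lay under untreated. HAS2, a hyaluronan synthase, had 11.1 ± 0.895 FPKM with PANC-1 EV and 2.53 ± 0.467 FPKM with PPCL-68 EV (log2 1.78). COL8A1, a collagen, had 29.4 ± 0.919 FPKM untreated, 15.8 ± 0.626 FPKM with PANC-1 EV and 3.38 ± 0.319 FPKM with PPCL-68 EV. PPP1R3C (log2 1.75), which promotes glycogen storage, rose from 5.12, 5.11 and 5.04 to 24.9, 25.2 and 23.6 FPKM. Farthest below PPCL-68 EV were RP1-56J10.8 (log2 -1.51), DHRS2 (-1.34), HMOX1 (-1.30), DNAJC3 (-1.23), an ER co-chaperone, and FAM43A (-1.17). DNAJC3 had 12.57, 12.51 and 12.19 FPKM untreated, 11.63, 10.85 and 10.78 FPKM with PANC-1 EV and 28.65, 27.38 and 26.28 FPKM with PPCL-68 EV. By limma its slight fall against untreated lost its call with size factors (adjusted p = 0.0893). The same held without PANC-1 EV replicate 2 (0.0584) or 3 (0.0691) or untreated replicate 1 (0.0545) or 2 (0.0512). UPP1, uridine phosphorylase, rose with PANC-1 EV and lay higher still with PPCL-68 EV (log2 -0.925, adjusted p = 3.9e-06): 108, 138 and 142 FPKM untreated, 714, 771 and 709.6 FPKM with PANC-1 EV and 1413, 1455 and 1304 FPKM with PPCL-68 EV.

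**Figure D5:**
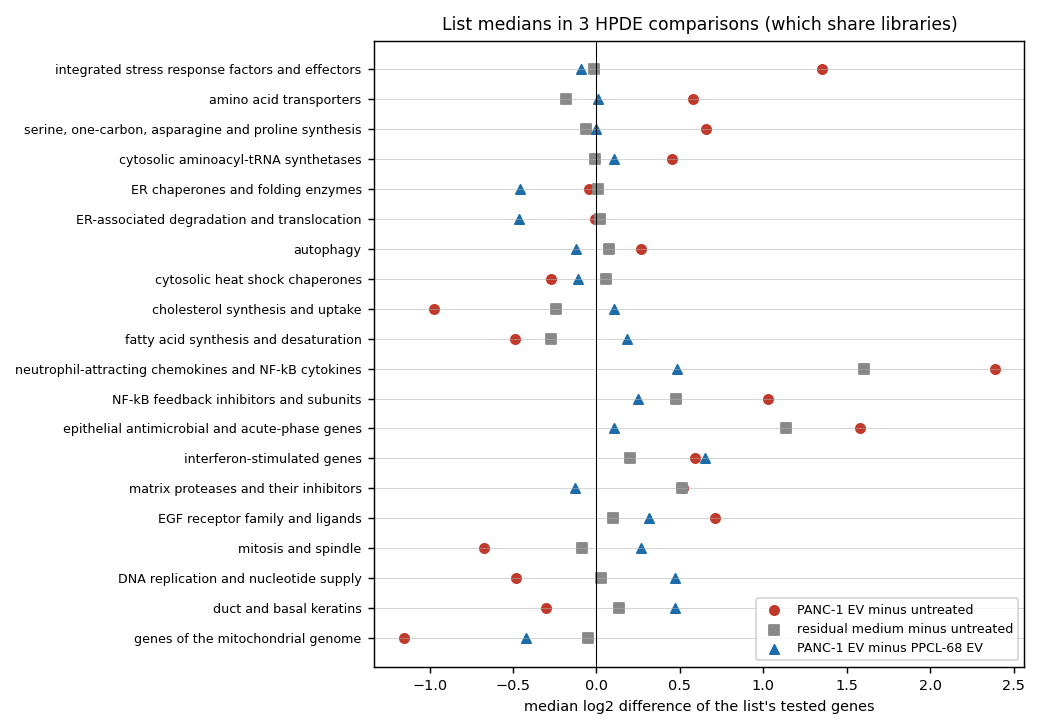
Median log2 difference of the tested genes of 20 lists in 3 HPDE comparisons: PANC-1 EV minus untreated (circles), residual medium minus untreated (squares) and PANC-1 EV minus PPCL-68 EV (triangles). Squares lie near 0 for the stress lists but at 1.603 for chemokines, and triangles lie at -0.46 for both ER lists and at 0.65 for interferon-stimulated genes.

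Many changes differed in size between HPDE and the other recipient line. A fit of all 24 libraries tested the difference between HPDE and HPNE in the change from untreated to PANC-1 EV: 2135 of 10483 genes (20.4%) differed, 1036 with a higher and 1099 with a lower value in HPDE, by limma. The count was 2918 without HPNE untreated replicate 3, 2811 without HPNE PANC-1 EV replicate 1 and 1437 to 1700.0 without any other single library. IL8 was higher with PANC-1 EV in both lines, in HPNE from 2.31, 2.64 and 4.7 to 1109, 1658 and 1461 FPKM, so the HPDE log2 change (3.30) minus the HPNE log2 change (8.41) was -5.11 (adjusted p = 5.5e-09). CXCL1 and IL1B followed, with differences of -4.91 and -2.98. DDIT3 rose more in HPDE (log2 difference of changes 1.43, adjusted p = 0.011), as did MAP1LC3B (1.71, adjusted p = 9.6e-07). For the integrated stress response list 8 of 20 members had a higher change in HPDE and 2 a lower one, and of the chemokine list 8 of 9 had a lower one.

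Changes outside protein-coding genes were read with care, since the library kit kept no strand. Of 274 antisense genes tested 54 rose and 70 fell, and of 246 lincRNAs 52 rose and 72 fell, against 2953 and 3887 of 11009 protein-coding genes. NEURL3, typed as a pseudogene in the tables, rose from 1.07, 1.36 and 0.874 to 11.1, 13 and 14.2 FPKM, and the lincRNA RP11-214C8.5 from 2.67, 2.7 and 3.42 to 17.4, 16 and 16.1 FPKM. This lincRNA (chr17:62116510-62119203, minus strand, hg19) lies past the 3' end of ERN1 (chr17:62120353-62207504, minus strand), which rose as well. Whether the lincRNA reads belong to transcripts of ERN1 was not tested. RP11-169K16.6 (log2 1.80) rose, with PANC-1 EV replicate 2 above its partners, and AC004383.4 (-1.24) fell. Further falls among the 12 largest of protein-coding genes were CNTN1, a neural adhesion protein (10.7, 10.7 and 9.95 to 2.21, 2.08 and 1.89 FPKM), FAM111B (-1.68), EPN3 (-1.655), an endocytic adaptor, and S1PR5 (-1.51), a lipid receptor. G0S2, an inhibitor of lipolysis, rose from 1008, 1065 and 1040.0 to 1946, 2101 and 2096 FPKM, among the largest rises in FPKM.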

How the data were processed

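Total RNA of 24 wells was sequenced with a non-directional kit, so overlapping antisense genes can share reads. The authors deposited 1 table per library with an FPKM value for 48162 genes and, per the file headers, gene length; the submitters' processing notes name CASAVA, STAR, HTSeq, DESeq2 and hg19, without roles. FPKM times gene length came out whole in 100% of values (within 0.01 reads), which gave the reads per library. These cover counting error only, since reads carry no molecular identifiers.

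HPDE libraries were fitted with limma 3.58.1 (R 4.3.3; lmFit, eBayes with trend) on log2(FPKM + 1), which understates changes of low genes, for genes with mean FPKM of at least 1, with the 4 HPDE groups in 1 fit (8 residual degrees of freedom). Tests were two-sided with Benjamini-Hochberg adjustment and a threshold of 0.05. Alternatives were pseudocount 0.1, no filter, median-of-ratios size factors, only the libraries compared, voom on recovered reads, a replicate block and leaving out each library. The code was tested on simulated data.

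The comparison and the 45 gene lists were chosen with earlier results of these data known. Genes were named by rule: the 12 largest rises and 12 largest falls among protein-coding genes without overlap, the leading 2 genes of each list and up to 4 further called members, the 5 largest shifts in FPKM each way, the 5 and 4 largest differences each way from PPCL-68 EV and from HPNE, and 3 noncoding genes each way; other list members named were chosen after their values were seen. Duct epithelium, acinar, endocrine, stellate cell (sum 3.46 to 5.9 FPKM with PANC-1 EV), endothelial, leukocyte and mesenchymal marker lists were summed. Deviations of same-numbered untreated and PANC-1 EV libraries from their group means had correlations of -0.086, 0.15 and 0.023. Whether same-numbered wells shared a culture was not tested. Promoter sequences are RefSeq's on GRCh38.p14, matched by symbol; gene positions are the tables' own (hg19).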

Additional observations from a re-analysis of the deposited data

Results flagged for a closer look

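Of the results, 8 were picked out because the change from untreated to PANC-1 EV differed between HPDE and HPNE in a test of that difference (an interaction contrast in limma over all 24 libraries). The HPDE change minus the HPNE change, on the log2 scale, was positive for LURAP1L (2.62), SNAI1 (2.25), IFIT2 (2.23) and ABCA1 (2.07). LURAP1L was also higher with PANC-1 EV in HPNE, from 42.7, 41.8 and 32.5 to 54.6, 57.2 and 56 FPKM. SNAI1, a repressor of epithelial genes, had 1.89, 2.16 and 2.02 FPKM in untreated HPDE and 2.44, 3.29 and 3.07 FPKM with PANC-1 EV, against 20.4, 23.1 and 7.7 and 7.63, 2.4 and 2.05 FPKM in HPNE, where replicate 3 of untreated lay far under its partners. IFIT2 was lower with PANC-1 EV in HPNE, from 12.7, 12.3 and 7.74 to 6.76, 6.38 and 6.92 FPKM. ABCA1 in HPNE had 56.6, 56.9 and 28.9 FPKM untreated and 47.4, 24.9 and 20.3 FPKM with PANC-1 EV, and these groups overlapped.

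The same difference was negative for IL8 (-5.11), CXCL1 (-4.91), IL1B (-2.98) and SERPINB2 (-2.60). In untreated cells HPDE already held 35 ± 3.31 FPKM of IL8 (mean ± SD, n = 3) and 26.6 ± 5.55 FPKM of CXCL1, whereas HPNE held 0.736, 0.785 and 0.811 FPKM of CXCL1 before and 184, 199 and 146 FPKM after PANC-1 EV. IL1B in HPNE went from 1.6, 1.82 and 2.02 to 62.7, 114 and 96.8 FPKM and SERPINB2 from 0.899, 1.24 and 3.58 to 48.2, 95.7 and 93.9 FPKM. The part of the starting level in these differences was not tested.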

How the results depend on the processing

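The count of genes differing between PANC-1 EV and untreated (7413) was 7272 with size factors, 7385 with pseudocount 0.1, 7452 with only the libraries compared, 7509 by voom, 7524 without a filter and 6762 to 6975 without single libraries. At 2-fold or more the count (360) was 594 with pseudocount 0.1 (379 higher, 215 lower), 643 by voom (401 higher, 242 lower); both of these shrink low genes less. Without single libraries it was 368 to 375. For residual medium against untreated (2443) it was 1527 without a filter, with more genes tested, and 1427 to 2111 without single libraries: 1427 without untreated replicate 1, 1613 without untreated replicate 3 and 1576 without residual medium replicate 1; the cause was not tested. Without single libraries the counts against residual medium and PPCL-68 EV ranged from 7120 to 7376 and from 5244 to 5690, and that for HPDE minus HPNE from 1437 to 2918.

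A replicate block gave counts of 7171 against untreated, 360 at 2-fold, 7525 against residual medium, 2028 for residual medium, 5789 against PPCL-68 EV and 2083 for HPDE minus HPNE. Same-numbered untreated and PANC-1 EV libraries had correlations of -0.086, 0.15 and 0.023 between their deviations from the group mean. Differently numbered ones had correlations of -0.193 to 0.162. With 3 libraries a group these values cannot decide whether same-numbered wells shared a culture or a day, which was not tested. Of the values for named genes under the alternatives, 3415 counted as unchanged, 33 lost the call and 7 gained it. Among genes called in the main fit 0 values reversed direction. A gene not called in the main fit counted as unchanged wherever its direction changed, so reversals of such genes were not counted. The gained calls were those of HSPD1, MT2A, NQO1, SEL1L and SPRR1B. List medians moved beyond the replicate spread in 94 of 540 cases; those of ER chaperones, ER-associated degradation, LXR targets, lysosome, vesicle biogenesis, ERK output and junction genes lay near 0 and changed sign under some alternatives.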
